A study of Mus musculus with 24 samples.

Results

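A set of 10 genes that restrain mTOR complex 1 was followed through insulin and IGF-1 treatment of cultured mouse astrocytes with an intact or a Cre-targeted insulin receptor gene. The 10 genes are the sestrins Sesn1, Sesn2 and Sesn3, the inhibitors Ddit4 and Deptor, the TSC complex genes Tsc1 and Tsc2, and the GATOR1 complex genes Depdc5, Nprl2 and Nprl3. They were picked by symbol from the 32719 genes of the count tables, each symbol occurred in all 24 libraries, and all 10 were among the 15599 genes that passed the filter on low counts. The cells were primary astrocytes from the cortex of newborn pups with a floxed insulin receptor gene. Knockout cells (IRKO) had received an adenovirus encoding Cre:GFP, and floxed control cells an adenovirus encoding GFP alone, so genotype and virus differ together. Both kinds of cells were kept for 5 more days, starved of serum overnight in medium with albumin and then given insulin or IGF-1, each at 100 nM, or vehicle for 6 h. This gave IRKO cells with insulin, IRKO cells with IGF-1, IRKO cells with vehicle, and floxed control cells with the same 3 treatments, with 4 libraries each. The labels do not say whether replicates came from separate litters or cultures, so the p-values reflect only how these libraries varied, and that variation may be technical. The gene-level comparisons ask how each ligand changes a transcript in each genotype, and whether that response differs between knockout and control cells.

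mTOR complex 1 (mTORC1) is the kinase complex that drives protein synthesis and cell growth and holds back autophagy when amino acids and growth factors are plentiful. Growth factors reach it through AKT, which inhibits the TSC complex and so frees the small GTPase Rheb, while amino acids reach it through the Rag GTPases on the lysosome, which GATOR1 switches off and GATOR2 protects. Sestrins bind and block GATOR2, and leucine releases SESN2 and SESN1 from it. DDIT4 (REDD1) restores TSC activity under stress, and DEPTOR binds mTOR itself. Most of these proteins are regulated by modification and binding, so transcript levels, the only quantity measured here, are 1 layer of their control.

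Per kilobase of exon, which allows levels to be compared between genes, Ddit4 and Sesn2 stood highest among the 10 genes. Their means over the 24 libraries were 31.1 and 29.9 CPM (read counts scaled to library size) per kilobase. Tsc2 followed at 12.9 and Sesn3 at 10.0 CPM per kilobase. Nprl2 stood at 6.46, Sesn1 at 6.03, Tsc1 at 4.86, Depdc5 at 3.24 and Nprl3 at 3.12 CPM per kilobase. Deptor was lowest at 0.593 CPM per kilobase, with 62.0 to 126.0 reads per library, so its differences are the least precisely known of the 10. Over the 24 libraries the ranges of neighbours in this order overlapped, except between Sesn2 and Tsc2 and between Nprl3 and Deptor, and Sesn3 stood above Tsc2 on average with vehicle and below it with either ligand. The libraries carried no strand information, and coordinates below are those of GENCODE M21 on GRCm38 (mm10). 17.7% of the exon length of Nprl3 overlaps Mpg on the opposite strand and 7.2% of that of Tsc2 overlaps Pkd1, so reads there cannot be assigned to 1 strand. The other 8 genes share no exon sequence with another counted gene, and annotated genes that were not counted were not checked.

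Upstream sequence is shown for 4 genes that moved with the ligands in different directions, so that a fall (Sesn3, Tsc1) can be set beside a rise (Sesn2, Ddit4). Each line gives the 250 bases before the RefSeq start site on GRCm38.p6 (mm10), 5′ to 3′ on the strand of the gene. Capitals mark each match to CCAAT or its reverse complement ATTGG and, in Ddit4, to ACGTG, the core of the hypoxia response element. The windows are chr9:14276051-14276300 (plus strand) for Sesn3, chr2:28640983-28641232 (plus) for Tsc1, chr4:132510457-132510706 (minus) for Sesn2 and chr10:59951771-59952020 (minus) for Ddit4. The Sesn3 window lies inside the GENCODE M21 span of the gene, which begins at chr9:14275067, and sequence before that position was not searched. The windows of Tsc1, Sesn2 and Ddit4 also reach into the GENCODE spans of these genes.
Sesn3: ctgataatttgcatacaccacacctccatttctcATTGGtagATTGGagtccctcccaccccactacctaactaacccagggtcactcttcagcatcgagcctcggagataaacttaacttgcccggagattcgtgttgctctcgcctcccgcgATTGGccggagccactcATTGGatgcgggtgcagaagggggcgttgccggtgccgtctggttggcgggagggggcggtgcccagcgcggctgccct
Tsc1: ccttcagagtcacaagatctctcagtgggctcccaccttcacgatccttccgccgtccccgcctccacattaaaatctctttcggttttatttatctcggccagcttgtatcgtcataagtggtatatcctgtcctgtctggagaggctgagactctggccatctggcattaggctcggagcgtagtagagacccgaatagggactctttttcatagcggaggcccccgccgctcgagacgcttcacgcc
Sesn2: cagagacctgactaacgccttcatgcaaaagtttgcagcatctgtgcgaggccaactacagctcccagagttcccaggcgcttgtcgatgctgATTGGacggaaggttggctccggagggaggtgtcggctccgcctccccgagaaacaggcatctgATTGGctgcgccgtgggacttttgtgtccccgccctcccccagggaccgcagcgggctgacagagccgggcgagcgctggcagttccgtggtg
Ddit4: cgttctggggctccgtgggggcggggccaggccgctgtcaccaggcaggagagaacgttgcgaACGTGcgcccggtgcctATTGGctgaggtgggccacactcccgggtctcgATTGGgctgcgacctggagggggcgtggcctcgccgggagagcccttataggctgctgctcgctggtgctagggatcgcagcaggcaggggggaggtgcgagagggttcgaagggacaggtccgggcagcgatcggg
The Sesn3 window held 4 CCAAT matches, those of Sesn2 and Ddit4 held 2 each, and that of Tsc1 held none. All of these matches read ATTGG on the gene's strand, and 33.85% of 32851 RefSeq promoter windows of this length held at least 1 match on either strand. Windows were found for 9 of the 10 genes, with a second start site for Sesn1, and each Sesn1 window held 1 such match. Ddit4 alone held ACGTG, at position -187 from its start, a motif present in 16.57% of all windows. The forkhead core GTAAACA, the insulin response element core CAAAACA and the ATF4 element core TGATGNAA, searched on both strands, had no match in any of these windows and were present in 3.17%, 5.56% and 3.45% of all windows. CCAAT and ACGTG share no base with another motif match in these windows.

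Libraries held 15429688 to 19010986 counts on genes. Insr, the targeted gene, stood at 26.6 to 30.6 CPM in IRKO cells with insulin, 29.0 to 32.2 with IGF-1 and 37.7 to 43.7 with vehicle, against 47.5 to 52.6, 46.7 to 50.9 and 58.8 to 66.9 CPM in floxed control cells under the same treatments. Insr was thus lower in IRKO under each treatment but not absent; the counts cover the whole gene and the labels do not name the deleted exon. Astrocyte markers were abundant, except Gjb6, which had no count in 9 of 24 libraries, and S100b, at 1.70 to 3.93 CPM. Their sum over 11 genes was 4681 to 4829.5 CPM in IRKO cells with insulin, 4454 to 4493 with IGF-1 and 4728 to 4983 with vehicle, against 4470.2 to 4748, 4131 to 4268 and 4503 to 4785 CPM in floxed control cells. The IGF-1 libraries thus lay wholly below the vehicle libraries in each genotype, and of 10 tested markers 2 rose and 5 fell with IGF-1 in IRKO cells and 2 rose and 6 fell in floxed control cells. The sum of 12 microglia markers was 1121 to 1142 CPM in IRKO cells with insulin, 1088 to 1173 with IGF-1 and 1314 to 1334 with vehicle. In floxed control cells it was 920.3 to 996 CPM with insulin, 963 to 1004 with IGF-1 and 1078 to 1135 with vehicle. None of the 12 was at 0 in any library. With insulin, 10 of 12 fell in IRKO cells and 8 of 12 in floxed control cells, and with IGF-1, 9 and 6 of 12. Of all tested genes, 21.7% and 21.4% fell with insulin and 25.1% and 24.4% with IGF-1 in these genotypes. In IRKO cells 8 of 12 were higher than in floxed control cells with insulin, 6 with IGF-1 and 10 with vehicle, where 10.5%, 6.76% and 7.86% of all tested genes differed in either direction. The sum of 8 neuron markers was 132 to 138 CPM in IRKO cells with insulin, 134 to 144 with IGF-1 and 122 to 133 with vehicle, against 161 to 173, 158 to 168 and 144 to 147 CPM in floxed control cells. Of the 5 tested, 3 were lower in IRKO cells with insulin, 2 with IGF-1 and 2 with vehicle, while 1 rose and 2 fell with insulin in IRKO cells and 2 rose and 1 fell in floxed control cells. Stmn2, Map2 and Gad1 had medians of 78.6, 55.8 and 11.4 CPM over the 24 libraries, so the neuron sum reflects mainly these genes. The median was 1.79 CPM for Syt1, 0.395 for Gad2, 0.176 for Rbfox3 and 0.0606 for Snap25. Snap25 was at 0 in 9 libraries and Rbfox3 in 4. Fibroblast and mural markers summed to 307 to 330, 301 to 324 and 283 to 327 CPM with insulin, IGF-1 and vehicle in IRKO cells. In floxed control cells these sums were 318 to 361, 286 to 318 and 315 to 339 CPM. Oligodendrocyte lineage markers summed to 140 to 143, 135 to 145 and 147 to 157 CPM in the same order in IRKO cells. In floxed control cells they summed to 134 to 138, 118 to 130 and 134 to 141 CPM. In bulk cultures, fewer cells of a type and less RNA per cell cannot be told apart. The part of any of these cell types in the differences below was not tested. The endothelial marker Cldn5 and the neuronal marker Slc17a6 had no count in 23 of 24 libraries.

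Insulin and IGF-1 moved 6 of the 10 genes in both genotypes. Sesn3, Tsc1, Depdc5 and Sesn1 fell and Ddit4 and Sesn2 rose in all 4 comparisons of a ligand with vehicle, Deptor fell in 2 of them, and Tsc2, Nprl2 and Nprl3 were not called in any. Calls are adjusted p-values under 0.05 (Benjamini-Hochberg over 15599 genes) in the quasi-likelihood test of edgeR. In IRKO cells 6 of 10 genes were called with insulin, against 46.4% of all tested genes, and 7 of 10 with IGF-1, against 52.0%. In floxed control cells 7 of 10 were called with insulin, against 45.7%, and 6 of 10 with IGF-1, against 50.8%. About as large a share of all genes moved, so these counts do not set the 10 genes apart. Of the 10, 2 rose in each comparison, against 24.7% of all genes with insulin and 26.9% with IGF-1 in IRKO cells and 24.3% and 26.4% in floxed control cells. With insulin 4 fell in IRKO cells, against 21.7%, and 5 in floxed control cells, against 21.4%; with IGF-1 5 fell in IRKO cells, against 25.1%, and 4 in floxed control cells, against 24.4%. Groups did not overlap in CPM for 6 of 10 genes with each ligand in IRKO cells, against 38.8% of all genes for insulin and 44.9% for IGF-1. In floxed control cells they did not overlap for 7 of 10 with insulin, against 38.1%, and 6 of 10 with IGF-1, against 43.3%. The median log2 difference of the 10 genes was -0.14 for insulin and -0.20 for IGF-1 in IRKO cells and -0.22 and -0.15 in floxed control cells, where the median of all tested genes was 0.0086, -0.00069, 0.0010 and -0.0037 in the same order. The insulin and IGF-1 comparisons of a genotype share its 4 vehicle libraries, so they are not independent of each other.

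**Figure D1:**
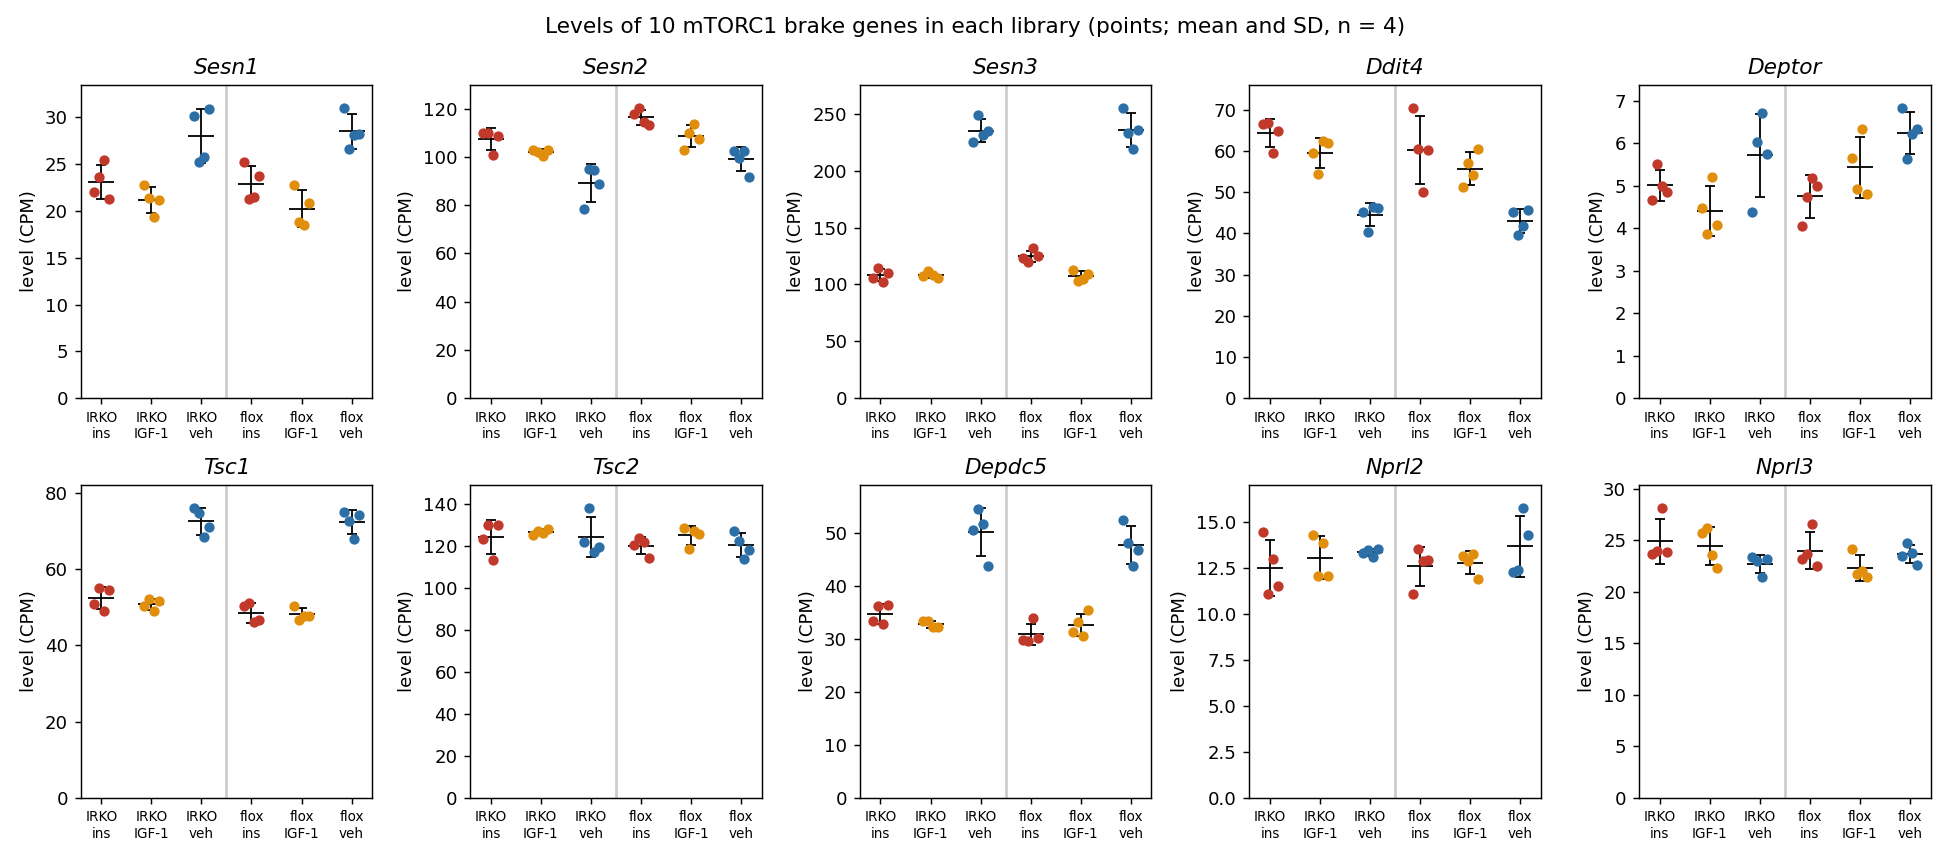
Level of each of the 10 genes in CPM (vertical axis, from 0) in each of the 24 libraries (points), by genotype and treatment (horizontal axis; ins, insulin; veh, vehicle; flox, floxed control), with the mean and SD of 4 libraries. The vehicle libraries stand above the ligand libraries for Sesn3, Tsc1 and Depdc5 and below them for Ddit4 in both genotypes, while Tsc2 stays between 113 and 138 CPM throughout.

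Sesn3 (ENSMUSG00000032009, chr9:14275067-14333101, plus strand), a sestrin known as a FOXO target, had the largest differences of the 10 genes. In IRKO cells it stood at 105, 114, 102 and 110.4 CPM with insulin and 107, 112, 108 and 106 CPM with IGF-1, against 226, 249, 232 and 235 CPM with vehicle. Floxed control cells had 123, 119, 132 and 125 CPM with insulin and 113, 103, 105 and 109 CPM with IGF-1, against 255, 234, 219 and 235 CPM with vehicle. Every ligand library lay far below every vehicle library in both genotypes, and the insulin libraries of floxed control cells all lay above those with IGF-1. In IRKO cells the level fell by 54.1% with insulin (log2 difference -1.12, SE 0.044, adjusted p = 7.10e-24) and by 54.0% with IGF-1 (log2 difference -1.12, SE 0.044, adjusted p = 4.85e-24). The floxed controls fell by 47.1% with insulin (log2 difference -0.92, SE 0.043, adjusted p = 5.02e-21) and by 54.4% with IGF-1 (log2 difference -1.13, SE 0.044, adjusted p = 3.84e-24). Among the 15599 tested genes, 136 fell further than Sesn3 with insulin and 220 with IGF-1 in IRKO cells, and 302 and 204 in floxed control cells, counting every gene with a lower log2 difference whether or not it was called.

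Sesn1 (ENSMUSG00000038332, chr10:41809935-41908424, plus strand), a sestrin first known as a p53 target, fell less than Sesn3. IRKO cells had 22.1, 23.6, 25.5 and 21.3 CPM with insulin and 22.8, 21.4, 19.4 and 21.2 CPM with IGF-1, against 30.1, 25.3, 25.8 and 30.9 CPM with vehicle. Among floxed control cells the level was 25.3, 21.3, 21.5 and 23.7 CPM with insulin and 22.8, 18.8, 18.5 and 20.9 CPM with IGF-1, against 31.0, 26.6, 28.1 and 28.3 CPM with vehicle. The insulin and vehicle libraries of IRKO cells overlapped by 1 library each, and the other 3 pairs of groups did not overlap. The log2 difference was -0.28 with insulin (SE 0.078, adjusted p = 0.00307) and -0.40 with IGF-1 (SE 0.079, adjusted p = 3.72e-05) in IRKO cells. It was -0.31 with insulin (SE 0.078, adjusted p = 9.98e-04) and -0.50 with IGF-1 (SE 0.079, adjusted p = 1.22e-06) in floxed control cells.

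Sesn2 (ENSMUSG00000028893, chr4:132492032-132510501, minus strand), the leucine-binding sestrin and a known target of the stress factor ATF4, moved the other way from its paralogs. Its level in IRKO cells was 110.0, 110.1, 101 and 109 CPM with insulin and 103, 102, 100.5 and 103 CPM with IGF-1, against 78.5, 95.2, 94.6 and 88.7 CPM with vehicle. Its level in floxed control cells was 118, 120.3, 115 and 113 CPM with insulin and 103, 110.2, 114 and 108 CPM with IGF-1, against 103, 99.8, 103 and 91.8 CPM with vehicle. No ligand library fell below a vehicle library of its genotype, but the distances were small, at 9.52 to 20.3% on average over the 4 comparisons. In IRKO cells Sesn2 rose with insulin (log2 difference 0.27, SE 0.048, adjusted p = 1.07e-05) and with IGF-1 (log2 difference 0.19, SE 0.048, adjusted p = 7.28e-04). In the floxed controls it rose with insulin (log2 difference 0.23, SE 0.047, adjusted p = 8.76e-05) and with IGF-1 (log2 difference 0.13, SE 0.047, adjusted p = 0.0191). The last of these was lost without floxed control vehicle library 4 (log2 difference 0.091, adjusted p = 0.131) and without floxed control IGF-1 library 3 (0.105, adjusted p = 0.0871), and when only genes with a mean CPM of at least 1 were tested (0.106, adjusted p = 0.0528).

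Ddit4 (ENSMUSG00000020108, chr10:59949669-59951834, minus strand), which encodes the stress-induced inhibitor REDD1, also rose. IRKO cells held 66.5, 66.9, 59.4 and 64.9 CPM with insulin and 59.6, 54.4, 62.6 and 61.9 CPM with IGF-1, against 45.1, 40.4, 46.4 and 46.1 CPM with vehicle. For floxed control cells the values were 70.4, 60.6, 50.05 and 60.2 CPM with insulin and 51.3, 57.0, 54.1 and 60.6 CPM with IGF-1, against 45.2, 39.6, 41.8 and 45.6 CPM with vehicle. Each ligand library lay above each vehicle library, and the floxed control insulin group had the widest spread, with library 3 lowest and library 1 highest. The rise was 44.9% with insulin (log2 difference 0.53, SE 0.068, adjusted p = 1.57e-08) and 34.0% with IGF-1 (log2 difference 0.42, SE 0.069, adjusted p = 1.77e-06) in IRKO cells. Floxed control cells gave 40.0% with insulin (log2 difference 0.49, SE 0.069, adjusted p = 1.83e-07) and 29.4% with IGF-1 (log2 difference 0.37, SE 0.070, adjusted p = 1.91e-05).

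Deptor (ENSMUSG00000022419, chr15:55112317-55259271, plus strand), whose product inhibits both mTOR complexes, was called in 2 of the 4 comparisons. In IRKO cells its level was 4.67, 5.52, 5.00 and 4.86 CPM with insulin and 4.48, 3.87, 5.20 and 4.07 CPM with IGF-1, against 4.38, 6.03, 6.72 and 5.76 CPM with vehicle. Floxed control cells showed 4.06, 4.75, 5.20 and 5.00 CPM with insulin and 5.67, 4.94, 6.34 and 4.80 CPM with IGF-1, against 6.83, 5.63, 6.21 and 6.34 CPM with vehicle. The groups overlapped in 3 of the 4 comparisons, and insulin against vehicle in floxed control cells was the exception. It fell with IGF-1 in IRKO cells (log2 difference -0.38, SE 0.14, adjusted p = 0.0211) and with insulin in floxed control cells (log2 difference -0.40, SE 0.14, adjusted p = 0.0156). With insulin in IRKO cells (log2 difference -0.19, 95% interval -0.47 to 0.079) and with IGF-1 in floxed control cells (-0.20, interval -0.47 to 0.068) it was not called, and all 4 intervals overlap. The IGF-1 call in IRKO cells was lost without IRKO vehicle library 3 (adjusted p = 0.0977) or IRKO IGF-1 library 2 (0.0637) or 4 (0.0523), and the insulin call in floxed control cells without floxed control insulin library 1 (0.0504).

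The TSC complex is the GTPase-activating complex that switches Rheb off, with TSC1 as its stabilizing subunit and TSC2 as its catalytic one. Tsc1 (ENSMUSG00000026812, chr2:28641228-28691167, plus strand) stood at 50.9, 55.1, 49.0 and 54.5 CPM with insulin and 50.3, 52.1, 49.1 and 51.5 CPM with IGF-1 in IRKO cells, against 76.0, 74.9, 68.4 and 71.1 CPM with vehicle. Floxed control cells held Tsc1 at 50.3, 51.1, 46.2 and 46.6 CPM with insulin and 50.4, 46.7, 47.7 and 47.8 CPM with IGF-1, against 75.0, 72.5, 67.9 and 74.2 CPM with vehicle. All ligand libraries lay below all vehicle libraries. Tsc1 fell by 27.9% with insulin (log2 difference -0.47, SE 0.049, adjusted p = 1.05e-10) and 30.1% with IGF-1 (log2 difference -0.52, SE 0.049, adjusted p = 8.23e-12) in IRKO cells. It fell by 32.9% with insulin (log2 difference -0.58, SE 0.050, adjusted p = 7.23e-13) and 33.5% with IGF-1 (log2 difference -0.59, SE 0.050, adjusted p = 2.64e-13) in floxed control cells. Tsc2 (ENSMUSG00000002496, chr17:24595816-24632630, minus strand) averaged 124 ± 8.01 CPM with insulin and 127 ± 1.21 CPM with IGF-1 in IRKO cells, against 124 ± 9.58 CPM with vehicle (SD, n = 4 each). Its means in floxed control cells were 120.3 ± 3.99 CPM with insulin and 125 ± 4.36 CPM with IGF-1, against 121 ± 5.72 CPM with vehicle. Its groups overlapped in every comparison, and the 95% intervals of its log2 difference were -0.093 to 0.095 and -0.064 to 0.12 for insulin and IGF-1 in IRKO cells and -0.099 to 0.090 and -0.041 to 0.15 in floxed control cells, so a fall of the size seen in Tsc1 lies outside all 4.

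GATOR1 is the GTPase-activating complex that switches off the Rag GTPases, and DEPDC5 is the subunit that binds them while NPRL2 and NPRL3 form a pair carrying the catalytic activity. Depdc5 (ENSMUSG00000037426, chr5:32863701-32994236, plus strand) stood at 33.4, 36.1, 32.8 and 36.3 CPM with insulin and 33.3, 33.3, 32.2 and 32.1 CPM with IGF-1 in IRKO cells, against 50.6, 54.5, 51.7 and 43.8 CPM with vehicle. Floxed control libraries had 29.7, 29.6, 33.8 and 30.1 CPM with insulin and 31.3, 33.2, 30.6 and 35.3 CPM with IGF-1, against 52.4, 48.0, 43.8 and 46.8 CPM with vehicle. Ligand and vehicle libraries were fully separated in both genotypes. Depdc5 fell with insulin (log2 difference -0.53, SE 0.063, adjusted p = 2.72e-09) and IGF-1 (log2 difference -0.62, SE 0.064, adjusted p = 7.84e-11) in IRKO cells. It fell with insulin (log2 difference -0.63, SE 0.065, adjusted p = 8.06e-11) and IGF-1 (log2 difference -0.55, SE 0.064, adjusted p = 1.49e-09) in floxed control cells. Nprl2 (ENSMUSG00000010057, chr9:107542226-107545706, plus strand) averaged 12.5 ± 1.52 CPM with insulin and 13.1 ± 1.18 CPM with IGF-1 in IRKO cells, against 13.3 ± 0.176 CPM with vehicle, and 12.6 ± 1.05 and 12.8 ± 0.631 CPM with insulin and IGF-1 in floxed control cells, against 13.7 ± 1.66 CPM with vehicle (SD, n = 4 each). Its groups overlapped, and its log2 differences ran between -0.12 and -0.029 with none called and 95% bounds between -0.31 and 0.16.
Nprl3 (ENSMUSG00000020289, chr11:32225628-32267707, minus strand) averaged 24.9 ± 2.16 CPM with insulin and 24.4 ± 1.83 CPM with IGF-1 in IRKO cells, against 22.7 ± 0.896 CPM with vehicle. Its means in the floxed controls were 23.95 ± 1.80 CPM with insulin and 22.3 ± 1.24 CPM with IGF-1, against 23.6 ± 0.885 CPM with vehicle. The insulin libraries of IRKO cells, at 23.7, 23.9, 28.1 and 23.8 CPM, all lay above the vehicle ones, at 23.3, 23.0, 21.4 and 23.1 CPM, yet the difference was not called (log2 difference 0.13, 95% interval -0.0087 to 0.27, adjusted p = 0.119). The other intervals of Nprl3 were -0.035 to 0.25 with IGF-1 in IRKO cells, and -0.12 to 0.16 with insulin and -0.23 to 0.059 with IGF-1 in floxed control cells.

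**Figure D2:**
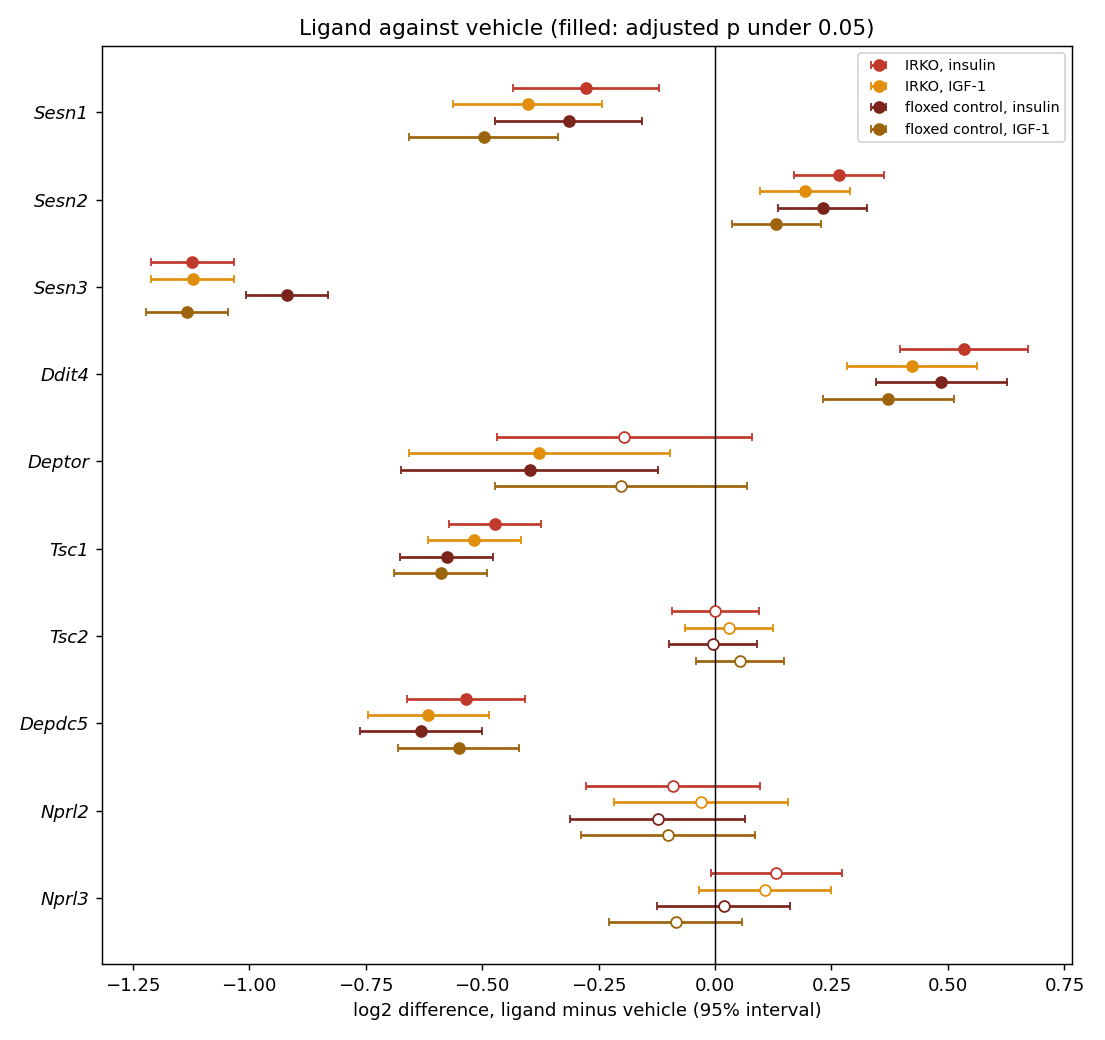
Log2 difference of ligand minus vehicle (horizontal axis) with its 95% interval for each gene (rows), by genotype and ligand (colours), from the edgeR fit of 24 libraries. Filled points have an adjusted p under 0.05; Sesn3 lies furthest to the left, between -1.13 and -0.92, Ddit4 and Sesn2 lie to the right of 0 in all 4 comparisons, and Tsc2, Nprl2 and Nprl3 have only open points.

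Partners of 1 complex, members of 1 family and, as a sixth pair, Ddit4 and Sesn3, the member that rose most and the one that fell most, were set against each other within each library as ratios of their counts, which do not depend on the scaling of libraries. The 6 ratios were chosen after the values above were seen, and an exact two-sided permutation test of the log2 ratio cannot give less than 0.0286 with 4 libraries a group. Tsc1 over Tsc2 averaged 0.421 ± 0.00868 with insulin and 0.400 ± 0.00882 with IGF-1 in IRKO cells, against 0.586 ± 0.0342 with vehicle (SD, n = 4 each). For floxed controls this ratio was 0.404 ± 0.0177 with insulin and 0.385 ± 0.00928 with IGF-1, against 0.600 ± 0.0177 with vehicle. The groups did not overlap in any of the 4 comparisons. Depdc5 over Nprl3 averaged 1.40 ± 0.166 with insulin and 1.34 ± 0.0763 with IGF-1 in IRKO cells, against 2.21 ± 0.240 with vehicle. Floxed control cells gave 1.29 ± 0.0384 with insulin and 1.47 ± 0.156 with IGF-1, against 2.02 ± 0.168 with vehicle, again with no overlap. Depdc5 over Nprl2 was lower with ligand in all 4 comparisons, with log2 differences of -0.43 and -0.58 for insulin and IGF-1 in IRKO cells and -0.52 and -0.46 in floxed control cells. For insulin in IRKO cells and IGF-1 in floxed control cells its groups overlapped (exact permutation p = 0.0571 each). Sesn3 over Sesn2 averaged 1.01 ± 0.0341 with insulin and 1.06 ± 0.0315 with IGF-1 in IRKO cells, against 2.65 ± 0.175 with vehicle. The same ratio was 1.07 ± 0.0682 with insulin and 0.992 ± 0.0797 with IGF-1 in floxed control cells, against 2.38 ± 0.189 with vehicle. Reads of Sesn3 thus outnumbered those of Sesn2 in each vehicle library and were about as many with ligand. Count ratios are not corrected for exon length, which is 15.269 kb for Sesn3 and 3.475 kb for Sesn2. Per kilobase, Sesn2 stood above Sesn3 on average in each group. With vehicle, Sesn2 had 25.7 and Sesn3 15.4 CPM per kilobase in IRKO cells, and 28.5 and 15.4 in floxed control cells. Sesn1 over Sesn2 fell by 0.54 to 0.63 on the log2 scale and Ddit4 over Sesn3 rose by 1.40 to 1.66, without overlap in any comparison. Apart from the 2 overlapping cases, each of the 24 ratio comparisons had the smallest exact permutation p that 4 against 4 libraries allow. It was 0.0286, or 0.0312 adjusted over the 24. Because the pairs were picked from these same libraries, these p-values are a description and add no evidence to the tests of single genes. These ratios show unequal change of the 2 genes of a pair, not which of them changed.

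**Figure D3:**
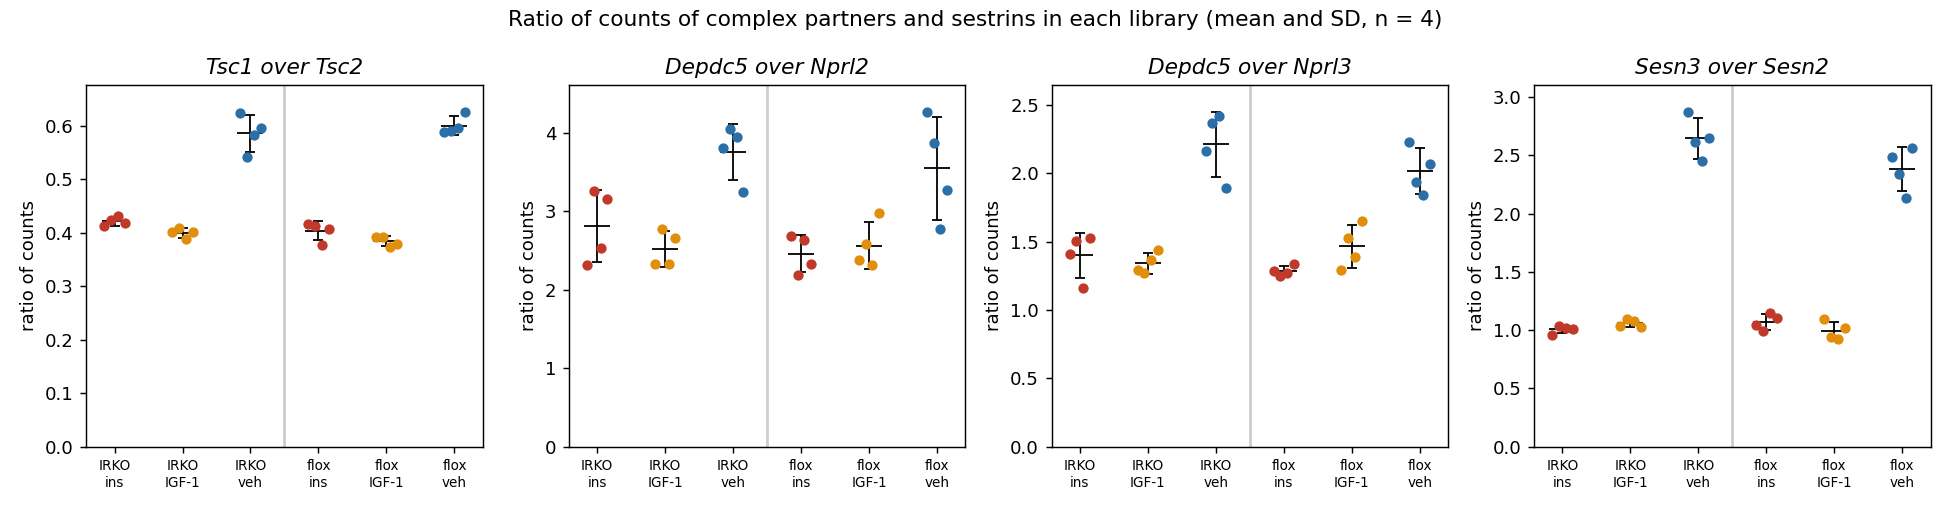
Ratio of gene counts within each library (vertical axis, from 0) for 4 pairs of genes, by genotype and treatment (horizontal axis), with points for libraries and the mean and SD of 4. Tsc1 over Tsc2, Depdc5 over Nprl3 and Sesn3 over Sesn2 are lower in every ligand library than in any vehicle library of the same genotype; Depdc5 over Nprl2 is lower on average with some overlap.

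Insulin and IGF-1 themselves differed for 1 of the 10 genes. Sesn3 in floxed control cells stood 16.0% higher with insulin than with IGF-1 (log2 difference 0.21, SE 0.045, adjusted p = 0.00311), at 125 ± 5.12 against 108 ± 4.29 CPM, and no other member was called, where 2.59% of all tested genes were. The 2 groups of Sesn3 libraries did not overlap. In IRKO cells 0 of 10 were called by edgeR, 0 at an unadjusted p under 0.05 and 0 by DESeq2, where edgeR called 2.67% of all genes. There Sesn3 averaged 108 ± 5.24 CPM with insulin and 108 ± 2.53 CPM with IGF-1, with a 95% interval of -0.092 to 0.091 for the log2 difference. The difference between these 2 differences, IRKO minus floxed control, was a comparison added after the values were seen. It was -0.21 for Sesn3 (SE 0.064), with an unadjusted p under 0.05 but an edgeR adjusted p of 0.999 over all genes, so the genotypes were not shown to differ in it. edgeR called 0 of all genes (0%) there, 690 had an unadjusted p under 0.05, and DESeq2 called 2, neither of them a member. The other 9 members were not called in either genotype, and their differences had both signs. Sesn1 differed by 0.13 in IRKO cells and 0.18 in floxed control cells, Sesn2 by 0.073 and 0.100, and Ddit4 by 0.11 and 0.11 on the log2 scale, with adjusted p between 0.29 and 0.542. Tsc2 differed by -0.029 and -0.058 and Nprl2 by -0.062 and -0.022 in the same genotypes. Deptor differed by 0.18 in IRKO cells and -0.20 in floxed control cells and Depdc5 by 0.081 and -0.082, while Tsc1 (0.045 and 0.012) and Nprl3 (0.025 and 0.10) were positive in both.

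IRKO and floxed control cells differed in 1 member with insulin, another with vehicle and none with IGF-1. With insulin, Sesn3 was lower in IRKO cells than in floxed control cells, at 108 ± 5.24 against 125 ± 5.12 CPM (log2 difference -0.21, SE 0.045, adjusted p = 0.00157), with no overlap between the groups. It was the only member called there, against 10.5% of all genes. The insulin groups of Sesn2 did not overlap either, at 110.0, 110.1, 101 and 109 CPM in IRKO cells and 118, 120.3, 115 and 113 CPM in floxed control cells, but Sesn2 was not called there (log2 difference -0.12, adjusted p = 0.112). With vehicle Sesn2 was the member called, at 0.900 times the floxed control level in IRKO cells (log2 difference -0.15, SE 0.048, adjusted p = 0.0399), where 7.86% of all genes were called. Its vehicle libraries had 78.5, 95.2, 94.6 and 88.7 CPM in IRKO cells and 103, 99.8, 103 and 91.8 CPM in floxed control cells, and these ranges overlapped. This call depended on the processing. It was lost with library size alone as scaling (adjusted p = 0.0565), in a fit of only the 8 vehicle libraries (0.101), and without any 1 of floxed control vehicle libraries 1 (0.0904), 2 (0.0855) or 3 (0.116) or IRKO vehicle libraries 1 (0.249) or 4 (0.0833). Without IRKO vehicle library 1, the lowest of its group, the log2 difference was -0.095. With IGF-1, 0 of 10 members were called by edgeR, 1 (Deptor) had an unadjusted p under 0.05 and 0 were called by DESeq2, where edgeR called 6.76% of all genes. Under vehicle, Sesn3 averaged 235 ± 9.96 CPM in IRKO cells and 236 ± 14.8 CPM in floxed control cells, with a 95% interval of -0.088 to 0.082 for the log2 difference. The summed microglia markers were higher and the summed neuron markers lower in IRKO cells under each treatment, as given above.

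**Figure D4:**
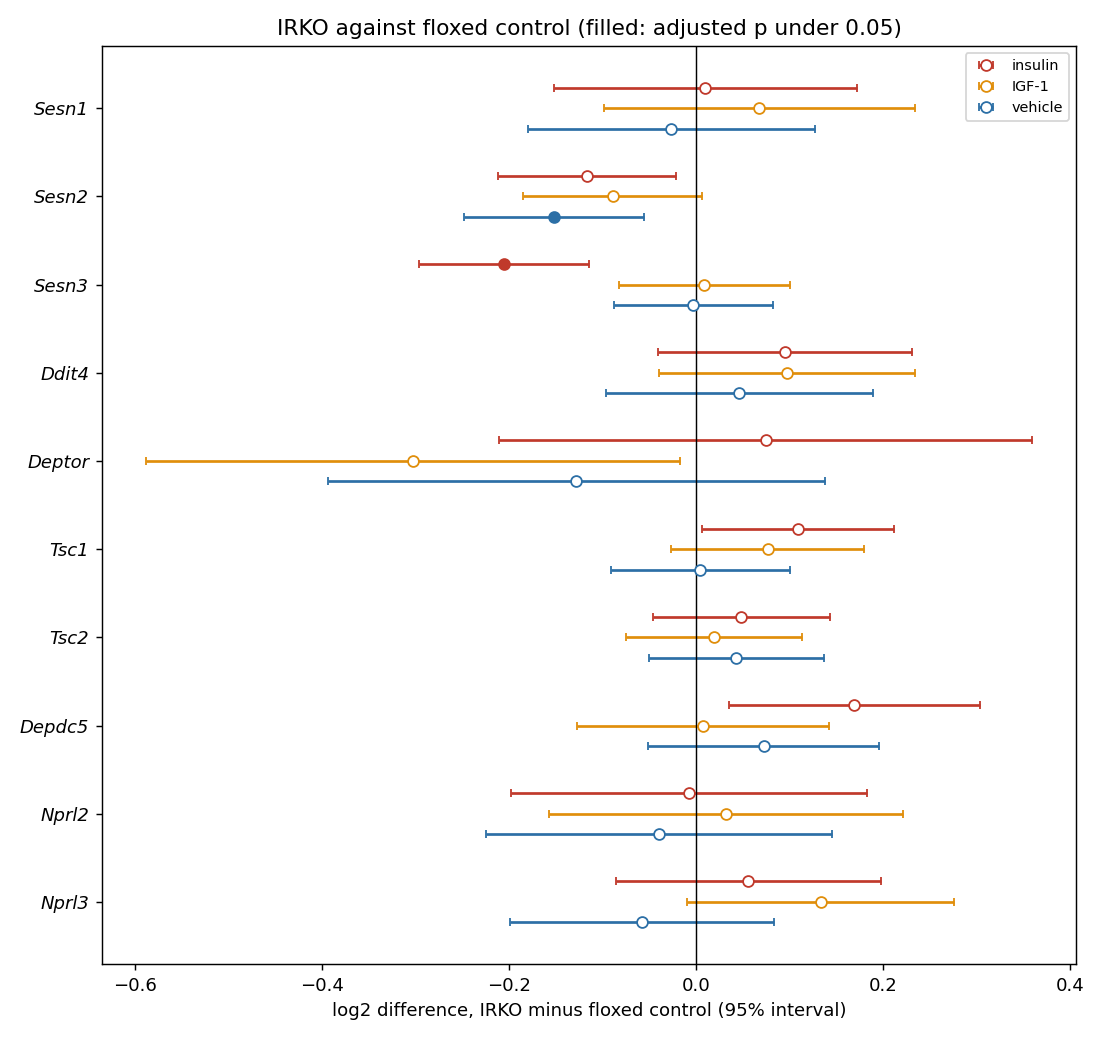
Log2 difference of IRKO minus floxed control (horizontal axis) with its 95% interval for each gene (rows), under insulin, IGF-1 and vehicle (colours), from the same edgeR fit. The 2 filled points, Sesn3 with insulin at -0.21 and Sesn2 with vehicle at -0.15, have an adjusted p under 0.05; all other points are open.

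The responses themselves were compared between genotypes with an interaction term. For Sesn3 with insulin, the log2 response was -1.12 in IRKO cells and -0.92 in floxed control cells, a difference of -0.20 (SE 0.061), but the edgeR adjusted p was 0.815, so the responses were not shown to differ. Its responses to IGF-1 differed by 0.012 (95% interval -0.11 to 0.14). For Sesn3, the insulin interaction, the difference between ligands in floxed control cells and that between genotypes with insulin share the 4 floxed control insulin libraries. These 3 comparisons are therefore not independent of each other. edgeR called 0 of 15599 genes (0%) for the insulin response and 0 (0%) for the IGF-1 response, with 838 and 822 genes at an unadjusted p under 0.05, and DESeq2 called 0 and 2, none of them a member. Among the 10 members, Sesn3 was the 1 with an unadjusted p under 0.05 for insulin and none had one for IGF-1. For Tsc1 the insulin response in IRKO cells minus that in floxed control cells was 0.10 (95% interval -0.036 to 0.25), for Depdc5 0.097 (-0.086 to 0.28), for Ddit4 0.049 (-0.15 to 0.25), for Sesn1 0.036 (-0.19 to 0.26) and for Sesn2 0.036 (-0.100 to 0.17). All 5 intervals include 0, and no bound is as large in size as the insulin response of Tsc1, Depdc5 or Ddit4 in either genotype.

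The rest of the pathway, 60 other tested genes in 10 lists, moved in both directions. With insulin, 13 rose and 22 fell in IRKO cells and 12 rose and 20 fell in floxed control cells; with IGF-1, 13 rose and 22 fell in each genotype. Among all tested genes, 24.7% rose and 21.7% fell with insulin in IRKO cells and 24.3% rose and 21.4% fell in floxed control cells; with IGF-1, 26.9% rose and 25.1% fell in IRKO cells and 26.4% rose and 24.4% fell in floxed control cells. These shares apply to every list below as well. The median log2 difference was -0.030 for insulin and -0.022 for IGF-1 in IRKO cells and -0.063 and -0.058 in floxed control cells. The folliculin complex, a GTPase-activating complex for RagC and RagD that promotes mTORC1 signalling, fell as a whole, with 3 of 3 genes called in each of the 4 comparisons. Flcn averaged 54.7 ± 3.17 CPM in IRKO cells with insulin, against 82.7 ± 3.22 CPM with vehicle (SD, n = 4 each), and Fnip1 52.4 ± 3.42 against 87.2 ± 3.56 CPM. Flcn in floxed control cells averaged 55.9 ± 0.747 CPM with insulin, against 87.8 ± 3.38 CPM with vehicle. Fnip2 fell less, with log2 differences of -0.31 with insulin in IRKO cells and -0.36 in floxed control cells.

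Of 4 amino acid sensors other than sestrins, 0 rose and 2 fell with insulin in IRKO cells and 0 rose and 2 fell in floxed control cells. Castor2, an arginine sensor paralog that binds GATOR2, fell with insulin by 0.84 on the log2 scale in IRKO cells and 0.95 in floxed control cells. Slc38a9, the lysosomal arginine sensor and transporter, fell by 0.85 and 0.72. Bmt2, the S-adenosylmethionine sensor SAMTOR, was called in 1 of the 4 comparisons, with IGF-1 in IRKO cells (log2 difference -0.13, SE 0.052, adjusted p = 0.0383). Of 9 Rag and Ragulator genes, 1 rose and 2 fell with insulin in IRKO cells and 2 rose and 1 fell in floxed control cells. Rragd fell most, to 45.2 ± 4.03 CPM with insulin in IRKO cells, against 90.9 ± 2.71 CPM with vehicle, and to 49.4 ± 3.97 CPM in floxed control cells, against 93.1 ± 2.83 CPM. Rraga rose slightly, by 0.16 with insulin in IRKO cells and 0.13 in floxed control cells. GATOR2, the complex that opposes GATOR1, had 3 of 5 genes rise and 1 fall with insulin in IRKO cells and 2 rise and 1 fall in floxed control cells. In IRKO cells with insulin, Sec13, also a nuclear pore and vesicle coat subunit, rose (log2 difference 0.34, SE 0.049, adjusted p = 2.11e-07) and Wdr59 fell (log2 difference -0.31, SE 0.061, adjusted p = 6.26e-05). KICSTOR, which tethers GATOR1 to the lysosome, had Itfg2 rise in 3 of 4 comparisons, all but insulin in IRKO cells.

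Downstream of the TSC complex, Rheb was not called in any ligand comparison, and its paralog Rhebl1 fell to 1.60 ± 0.229 CPM with insulin in IRKO cells, against 4.82 ± 0.496 CPM with vehicle. Rhebl1 in floxed control cells stood at 1.43 ± 0.576 CPM with insulin, against 3.91 ± 0.662 CPM. It shares 18.0% of its exon length with Dhh on the same strand. Tbc1d7, the third TSC subunit, rose with insulin in IRKO cells (log2 difference 0.35, SE 0.11, adjusted p = 0.0108) and was not called in the other 3 comparisons. Of 8 mTOR complex subunits, 3 rose and 3 fell with insulin in IRKO cells and 2 rose and 3 fell in floxed control cells. The TORC2 subunits Rictor (-0.40 with insulin in IRKO cells, -0.37 in floxed control cells) and Prr5l (-0.57 and -0.58) fell and Mlst8, shared by both complexes, rose (0.27 and 0.19). Mlst8 overlaps a gene on the opposite strand over 22.5% of its exon length. Of 7 mTORC1 substrates, 1 rose and 3 fell with insulin in IRKO cells and 1 rose and 3 fell in floxed control cells. The autophagy kinase gene Ulk1 fell most, to 41.3 ± 2.12 CPM with insulin in IRKO cells, against 98.2 ± 5.48 CPM with vehicle, and to 38.8 ± 2.52 CPM in floxed control cells, against 99.4 ± 5.62 CPM. Grb10, an adaptor that dampens receptor signalling, rose by 0.57 in IRKO cells and 0.32 in floxed control cells.

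Of 9 other brakes on mTORC1 or AKT, 2 rose and 3 fell with insulin in IRKO cells and 2 rose and 2 fell in floxed control cells. Pik3ip1, an inhibitor of phosphoinositide 3-kinase, fell to 55.5 ± 2.75 CPM with insulin in IRKO cells, against 115 ± 5.91 CPM with vehicle, and to 53.7 ± 4.04 CPM in floxed control cells, against 122 ± 2.72 CPM. Of 9 genes of the AMPK list, the energy-sensing pathway that activates TSC2, 2 rose and 3 fell with insulin in IRKO cells and 2 rose and 3 fell in floxed control cells. Stk11 (-0.34 with insulin in IRKO cells, -0.42 in floxed control cells) and Prkaa2 (-0.39 and -0.48) fell and Prkag2 rose (0.58 and 0.34). Between genotypes, none of the 60 genes outside the list of other brakes was called under vehicle or insulin. With insulin, 4 of the 60 were called, all lower in IRKO cells and all among the 9 other brakes, against 10.5% of all tested genes. They included, named after their values were seen, Phlpp1 (-0.16), Trib3 (-1.01) and Rnf152 (-0.95) on the log2 scale. With vehicle, 1 of the 60 was lower, Phlpp1 (-0.27), and 1 higher, Inpp4b (0.37), against 7.86% called in either direction. With IGF-1, 2 of the 60, Trib3 (-0.69) and Rraga (-0.13), were lower in IRKO cells and 0 higher, against 6.76%.

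Genes known to answer to regulators of the members, in 5 lists, were examined beside them, and their counts are to be read against 24.7% of all tested genes rising and 21.7% falling with insulin in IRKO cells and 24.3% and 21.4% in floxed control cells. All 12 FOXO targets fell in all 4 ligand comparisons, with a median of -0.55 for insulin and -0.59 for IGF-1 in IRKO cells and -0.55 and -0.58 in floxed control cells. The list was chosen with earlier results of these libraries known, so its direction is no independent evidence, and it holds the targeted gene Insr. Igf1r, the IGF-1 receptor gene, averaged 93.8 ± 3.85 CPM with insulin and 104 ± 5.83 CPM with IGF-1 in IRKO cells, against 200.03 ± 3.38 CPM with vehicle, and 88.4 ± 3.37 and 99.1 ± 2.57 CPM in floxed control cells, against 191 ± 2.00 CPM. Fbxo32, a FOXO-driven ubiquitin ligase gene, stood at 6.10 ± 0.846 CPM with insulin in IRKO cells, against 49.4 ± 2.83 CPM with vehicle, and at 4.71 ± 1.07 CPM in floxed control cells, against 43.8 ± 2.53 CPM. Of 12 ATF4 targets, 6 rose and 2 fell with insulin in IRKO cells and 8 rose and 1 fell in floxed control cells. Psat1, a serine synthesis enzyme, rose by 0.75 and 0.83, and Atf4 itself by 0.41 and 0.42, on the log2 scale. Of 12 p53 targets, 3 rose and 6 fell with insulin in each genotype, and Btg2, an antiproliferative p53 target, fell by 0.31 and 0.38. Of 12 HIF1 targets, 4 rose and 2 fell with insulin in IRKO cells and 5 rose and 2 fell in floxed control cells. Vegfa, the angiogenic factor, stood at 91.9 ± 6.93 CPM with insulin in IRKO cells, against 52.0 ± 1.84 CPM with vehicle, and at 73.2 ± 5.33 CPM in floxed control cells, against 50.3 ± 1.67 CPM. Of 9 tested glucocorticoid receptor targets, 2 rose and 4 fell with insulin in IRKO cells and 1 rose and 4 fell in floxed control cells, with Dusp1 at -0.49 and -0.68. Trp53inp1 is in the FOXO and p53 lists and Trib3 in the ATF4 list and that of other brakes.

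**Figure D5:**
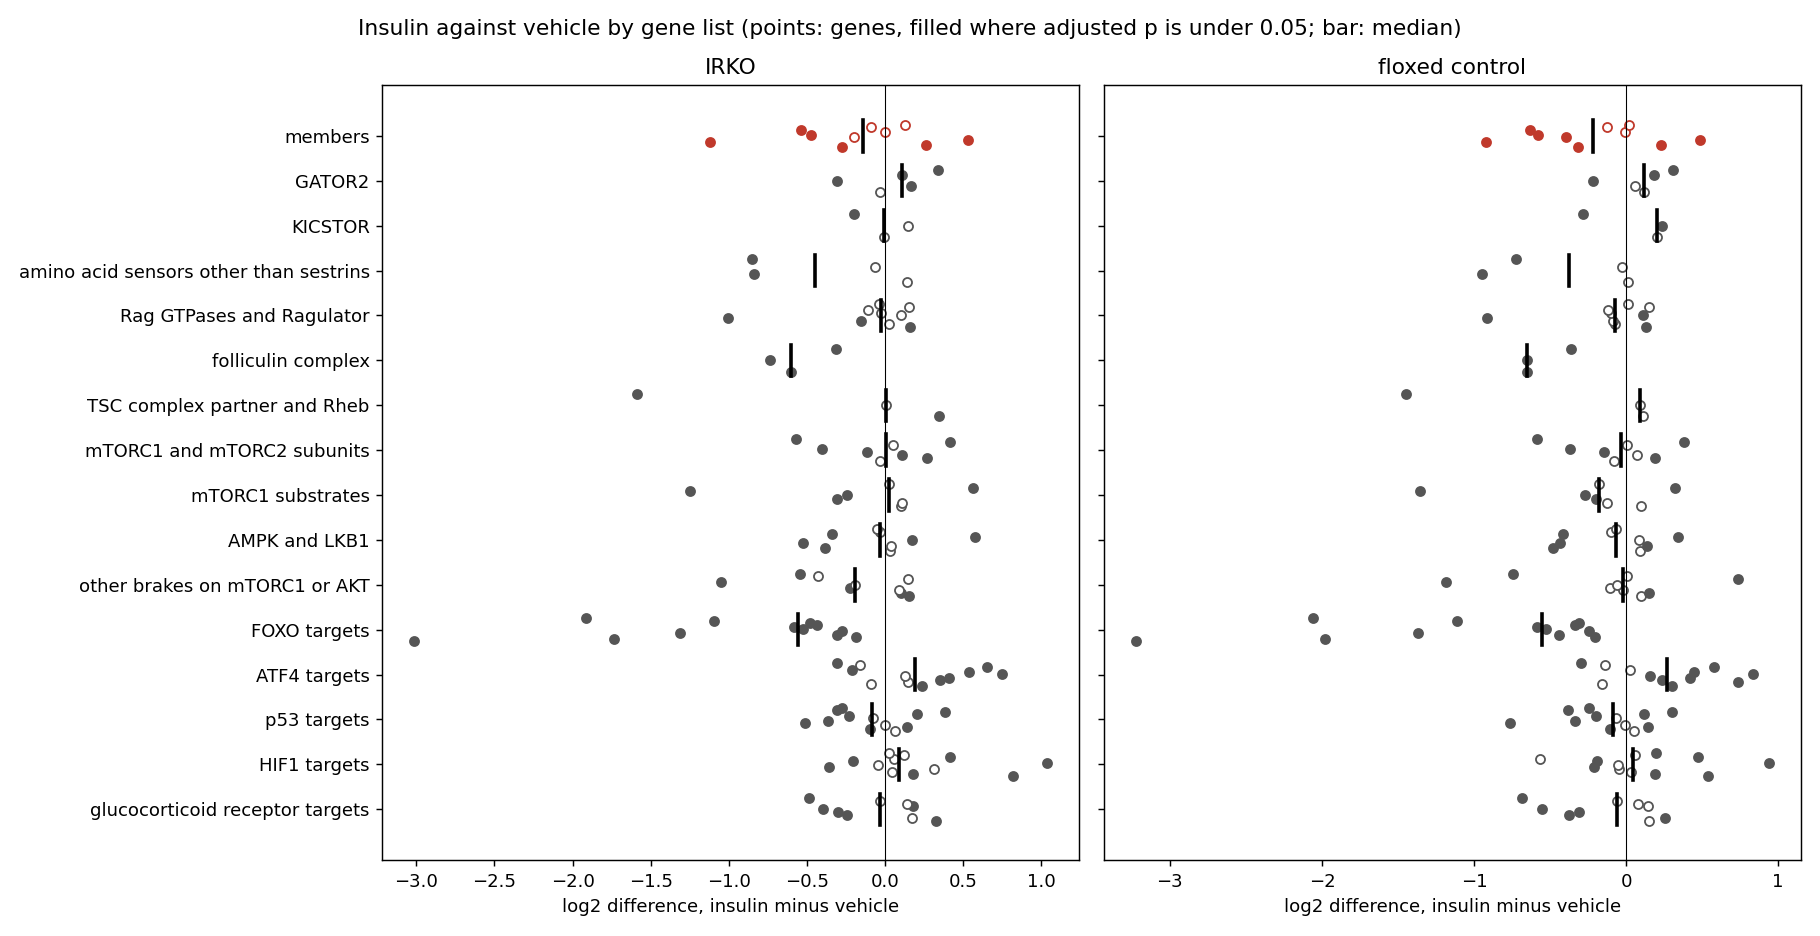
Log2 difference of insulin minus vehicle (horizontal axis) for each tested gene (points, filled at an adjusted p under 0.05) of the 10 members and 15 lists (rows), in IRKO cells (left) and floxed control cells (right), with a bar at each median. The members spread to both sides of 0, the folliculin complex and the FOXO targets lie wholly to the left, and the ATF4 targets lie mostly to the right with medians of 0.19 in IRKO cells and 0.27 in floxed control cells.

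The genes most like each member were taken as those with the highest Pearson correlation of log2 CPM over the 24 libraries, given as a description, since the libraries fall into 6 groups. For Sesn3 these were Hipk1 (r = 0.995), Crebrf (r = 0.992) and Samd4 (r = 0.990). With insulin, Crebrf stood at a log2 difference of -2.13 in IRKO cells and -2.05 in floxed control cells, a larger fall than that of Sesn3, and Hipk1 at -0.59 and -0.52, a smaller one. Tsc1 was closest to Gigyf1 (r = 0.981), Marf1 (r = 0.980) and Fam13b (r = 0.980), and Depdc5 to Pcnt (r = 0.969), C530044C16Rik (r = 0.963) and Golgb1 (r = 0.962). Sesn1 was closest to Ypel2 (r = 0.909), Smarcd1 (r = 0.906) and Tmem231 (r = 0.893). Of the members that rose, Ddit4 was closest to Pank1 (r = 0.924), Fads2 (r = 0.920), a fatty acid desaturase gene, and Wdr6 (r = 0.920). Sesn2 was closest to Slc13a3 (r = 0.902), Osgin1 (r = 0.900) and Syvn1 (r = 0.888). The best matches of Deptor, Tsc2, Nprl2 and Nprl3 were weaker, at r = 0.791 (Arhgef33), 0.758 (Gm25091), 0.686 (Slc7a10) and 0.692 (4930415O20Rik).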

How the data were processed

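Poly-A RNA of 24 libraries was sequenced without strand information as 150 bp pairs, from 2 µg of RNA of integrity number above 7, per the labels. The deposited values are read counts per gene, with no normalization by the authors. STAR 2.7.7a, edgeR, DESeq2, mm10 and R 4.0.4 are named in the submitters' processing notes; no label, note or header names the counting program. Each file ends in 3 lines that name no gene, which were left out of the counts and library sizes. By the totals in these lines, reads outside genes were 14.5 to 23.2%. This share was not computed from the gene counts and does not match them. Floxed control vehicle library 1 had 17245788 counts on genes and 20035450 total reads, but a share of 17.9%. Coordinates and exon lengths are from GENCODE M21 (32663 of 32719 identifiers matched), 1-based on GRCm38, and promoters from RefSeq GRCm38.p6.

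Counts were fitted with edgeR 4.0.16 in R 4.3.3 (quasi-likelihood, 1 mean per group over 24 libraries, TMM scaling). A filter on low counts (minimum 10, total 15) left 15599 genes, over which p-values were adjusted by Benjamini-Hochberg within each of 12 comparisons. The biological coefficient of variation was 4.92%. Counts were simulated for insulin against vehicle in floxed control cells, and 15418 genes were tested. There 95% of 100 genes changed by 1 and 58% of 100 changed by 0.3 on the log2 scale were recovered, with 5 false calls. No other gene was changed, and the changed ones had a mean CPM above 1. In the data 45.7% of all genes were called in that comparison, so these rates do not carry over to the reported tests. CPM used TMM-scaled library sizes, and log2 CPM a prior count of 2. No pair of replicates agreed within counting noise (chi-square per gene 2.14 to 6.50), so none was treated as a duplicate deposit; this does not show that replicates are independent cultures. Alternatives were RLE scaling, library size alone, 2 other filters, DESeq2 1.42.0, fits of only the compared groups, a replicate block and each library left out.

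The 10 members and all lists were chosen with earlier results of these data known. By rule, all members were named, up to 3 genes of each list with the lowest p for insulin in floxed control cells, Insr, Igf1r, and the 3 genes most like each member; some list genes are not reported here.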

Additional observations from a re-analysis of the deposited data

Results flagged for a closer look

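In each of the 60 gene and group combinations of the 10 members, the highest and lowest of the 4 libraries were compared with the rest by Dixon's test at the 95% level, which chance passes in about 1 of 20 groups. It marked 3. Sesn2 stood at 100.7 CPM in IRKO insulin library 3, below the other 3 libraries of its group at 109 to 110.1 CPM. Nprl3 stood at 28.13 CPM in the same library, above the other 3 at 23.7 to 23.9 CPM. Depdc5 stood at 33.84 CPM in floxed control insulin library 3, above the other 3 at 29.6 to 30.1 CPM.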

How the results depend on the processing

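The alternatives and the omission of each library were run for all 10 members and 12 comparisons. Of the members' log2 differences, 837 kept their side of the threshold under the alternatives and 3 lost it, and 1189 kept and 11 lost it with a library left out. No called difference changed sign. Members called for IRKO against floxed control under vehicle numbered 1, but 0 with library size alone, 0 in a fit of only the compared groups, and 0 to 1 with a library left out, the 1 gene being Sesn2; the cause was not tested. With a library left out, insulin called 6 members in IRKO cells and 6 to 7 in floxed control cells, and IGF-1 6 to 7 and 5 to 6. The losses of Sesn2 with IGF-1 in floxed control cells and of Deptor are given beside their results. Replicate numbers did not pair the libraries: over 60 same-numbered pairs the correlation of deviations from the group means was -0.115 to 0.061, and 15 were highest with their own number. With the replicate number as a block, 6 and 7 members were called for insulin and IGF-1 in IRKO cells and 7 and 6 in floxed control cells, as without it. Scaling by library size alone moved the share of higher calls among all genes for IRKO against floxed control with insulin to 57.4%, against 47.2% with TMM. Without the filter on low counts, 19 of all genes were called for the difference of insulin responses, 19 for that of IGF-1 responses and 16 for that of insulin minus IGF-1, against 0 each with it, and none was a member. Depth limits Deptor most, at 62 to 126 reads per library.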
